A study of Saccharomyces cerevisiae with 11 samples.

Results

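The fks1 mutant strain of budding yeast (Saccharomyces cerevisiae, strain number 5251) was compared with cells labelled wild type BY4741. The comparison used 8 of the 11 arrays of a glucosamine study: 2 fks1 arrays and 6 wild-type arrays. The members were chosen by array title: all arrays of the fks1 strain, untreated and after 2 h of glucosamine, with the wild-type arrays of the same treatments. The 3 wild-type arrays of continuous glucosamine have no fks1 partner and entered only an alternative fit. Each array measured total RNA with Affymetrix YG-S98 probe sets, short-oligonucleotide sets that cover the yeast genome.

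All cells were grown in YPD, a rich glucose medium, diluted 50-fold from an overnight culture and harvested at an OD600 of 1.6 to 1.8. Untreated wild type has 3 arrays, wild type with 15 mM glucosamine for 2 h has 3, and fks1 has 1 array untreated and 1 array with 15 mM glucosamine, whose title gives 2 h. The labels call 5251 a mutant strain and say nothing more of the allele or of its other markers, so any other difference between that strain and the BY4741 cells cannot be told apart from the fks1 mutation. The labels do not say that replicates were separate cultures, so p-values measure only the spread between these arrays, which may be technical.

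FKS1 encodes the main catalytic subunit of beta-1,3-glucan synthase, the plasma membrane enzyme that makes the chief structural polymer of the yeast cell wall. GSC2 (also called FKS2) encodes the alternative catalytic subunit, and the small GTPase Rho1 activates both. Wall damage is sensed by plasma membrane proteins of the Wsc and Mid2 families, passes through Rho1 and protein kinase C to the MAP kinase Slt2 and its transcription factor Rlm1, and raises a set of wall-related transcripts. Chitin, made from UDP-N-acetylglucosamine, is the polymer that wall-stressed cells are known to deposit in larger amounts, and glucosamine feeds the same sugar nucleotide route.

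The deposited values are signals that the authors scaled to a common trimmed mean, 500.4 to 500.5 on these arrays. Median signal was 122.7 to 131.6 on the wild-type arrays, 150.0 on the untreated fks1 array and 135.9 on the treated one. The ACT1 3′ to 5′ signal ratio, a measure of RNA integrity and cDNA length, was 1.30 to 1.54 in wild type and 1.24 and 1.37 in fks1. The same ratio for the TBP probe sets was 3.22 to 3.86 in wild type and 2.99 and 2.88 in fks1, both below the wild-type range, and its part in the results was not tested. A signal of 25.46, exceeded by only a few readings of 19 control sets for absent transcripts (their 95th percentile), marks the level below which a reading is not above background.

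FKS1 itself was checked first. It read 7567.3, 7133.6 and 7510.1 on the untreated wild-type arrays, 8256.7, 8055.6 and 8100.9 after 2 h of glucosamine, and 24.4 and 6.6 on the untreated and treated fks1 arrays. Both fks1 readings lie under the control percentile and far below all wild-type readings, so the mutant label holds on both arrays. Against that background level FKS1 was at least 305-fold lower. The log2 strain difference, fks1 minus wild type with treatment as a factor, was −9.15 (SE 0.32, limma adjusted p = 2.49e-06). All 7 other FKS1 probe sets were lower in fks1 too, and all passed the test except one that varied from 64.1 to 1308.3 within wild type and read 48.5 and 43.5 in fks1 (adjusted p = 0.187).

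Over all probe sets tested, 331 of 8778 differed between the strains, a background of 3.77% (limma, Benjamini-Hochberg adjusted p under 0.05, two-sided). Of these, 257 were higher in fks1 (2.93%) and 74 lower (0.843%), and 190 of the higher and 22 of the lower differed by 2-fold or more. With 1 probe set a gene, 240 of 5588 genes differed (4.29%), 184 higher (3.29%) and 56 lower (1.0%). Both fks1 arrays lay above all 6 wild-type arrays for 19.6% of genes and below all of them for 7.61%. The split between higher and lower depended on the scaling: with every array set to the same median, 170 probe sets were higher and 200 lower (45.9% higher against 77.6% as deposited), and the median log2 strain difference of all probe sets moved from 0.11 to −0.05. Without the untreated fks1 array 24 probe sets were called, without the treated one 35, and without any single wild-type array 201 to 310, with the fewest when untreated wild-type array 1 (201), untreated array 3 (205) or 2 h array 2 (220) was left out. Of 72 called genes named by rule, 12 still passed without the untreated fks1 array and 19 without the treated one, so most calls below rest on both. FKS1, MET17, CRG1, PRM5, KTR2, NCW2, PHO89, CPP3, MET3 and MET14 passed in both of those fits. BAG7 passed in both too, but all its wild-type readings were raised to the same floor value and had no spread there.

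The untreated and the 2 h differences, which share no array, correlated at r = 0.696 (rho = 0.608) over 5588 genes, a description across genes that come from the same 8 hybridizations and are not independent replicates.

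**Figure D1:**
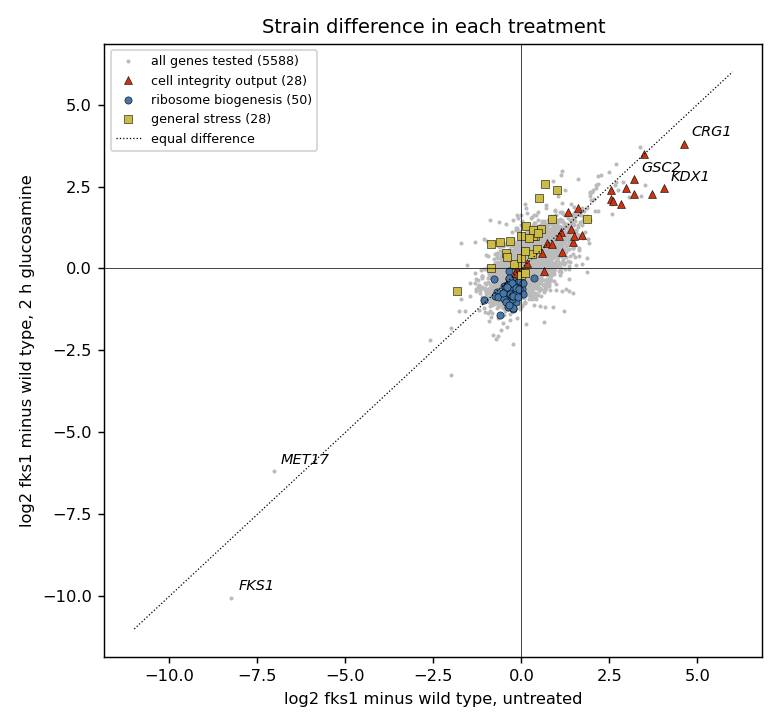
Log2 strain difference (fks1 minus wild type) of each gene in untreated cells (x axis) and after 2 h of glucosamine (y axis), 1 point a gene, with 3 gene lists marked and a dotted line where both are equal. FKS1 and MET17 lie farthest to the lower left, CRG1, KDX1 and GSC2 are labelled at the upper right, ribosome biogenesis genes lie mostly below 0 on both axes, and general stress genes lie above the line more often than below it.

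GSC2, the alternative glucan synthase subunit, rose in fks1. It read 334.1, 339.6 and 290.9 on the untreated wild-type arrays, 579.2, 480.6 and 257.5 on the 2 h wild-type arrays, and 2930.4 and 2748.6 on the fks1 arrays. The fks1 readings were several times the highest wild-type one and close to each other. The log2 strain difference was 2.96 (SE 0.28, 7.77-fold, limma adjusted p = 0.0012), and the 6 other GSC2 probe sets gave log2 differences of 2.70 to 3.44, of which 5 passed. Without the untreated fks1 array the adjusted p of GSC2 was 0.0902, and without the treated one 0.0494. FKS3, a sporulation-related homolog, read 55.1 to 88.8 in wild type and 101.9 and 139.7 in fks1 (log2 0.80, SE 0.25), which did not pass (adjusted p = 0.131). The 6 other FKS3 probe sets read 45.3 or less on all arrays and gave log2 differences of −0.21 to 0.65, none past the threshold. RHO1 read 2196.9 to 2960.1 in wild type and 3680.3 and 4027.4 in fks1, and its log2 difference of 0.54 did not pass (adjusted p = 0.071).

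Genes of the cell integrity output, a list of 28 known targets and outputs of the Slt2 pathway, held the largest share of called genes among the 40 lists. Of the 28, 20 rose (against 3.29% of all genes), none fell, and the median log2 strain difference was 1.35 (0.083 over all genes). Both fks1 arrays lay above all 6 wild-type arrays for 22 of 28, against 19.6% of all genes. The list mean on each array, relative to wild type of the same treatment, was 1.82 and 1.43 in fks1 and −0.27 to 0.18 on the wild-type arrays. The 8 genes that did not pass were the wall proteins PIR1, CIS3, HSP150, SED1, CWP1 and TOH1, with log2 values from −0.16 to 0.53, the aspartyl protease gene YPS1 (0.82) and DIA1 (1.23, adjusted p = 0.138, 0.0138 with the replicate number as a block). Of the 20 genes, 5 still passed without the untreated fks1 array and 10 without the treated one, and 15 to 19 passed when a wild-type array was left out. With that block, 21 were called.

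**Figure D2:**
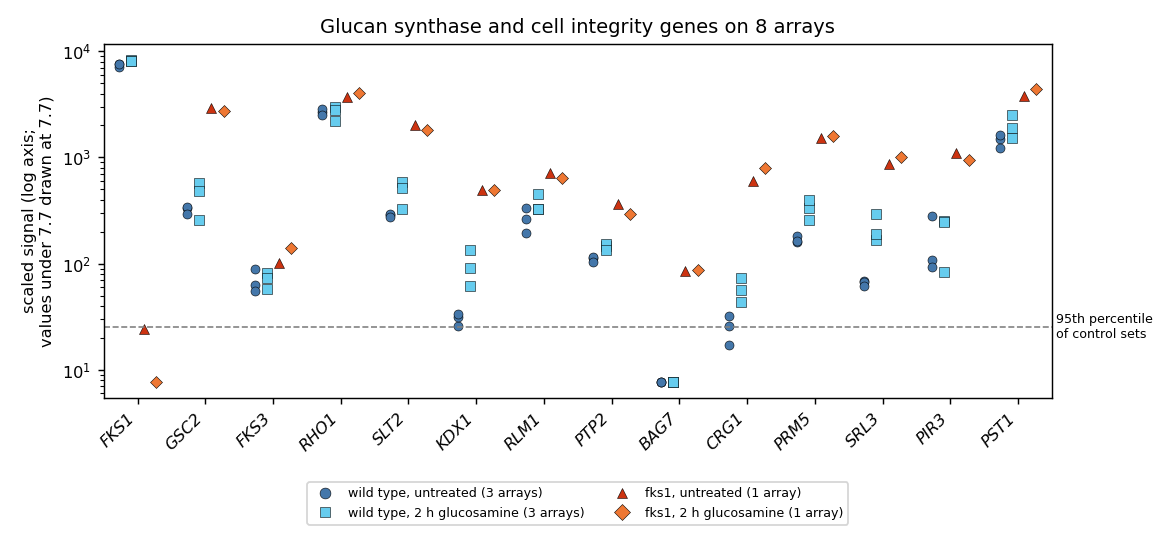
Scaled signal (log axis) of 14 glucan synthase and cell integrity genes on each of the 8 arrays, by strain and treatment, with values under 7.7 drawn at 7.7 and the control percentile of 25.46 as a dashed line. FKS1 falls to or under the dashed line on both fks1 arrays, while GSC2, SLT2, KDX1, CRG1, PRM5 and SRL3 lie above every wild-type array, and for KDX1, CRG1 and SRL3 the treated wild-type arrays lie between the untreated wild type and fks1.

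CRG1, a methyltransferase gene, had the largest difference on the list. It read 26.0, 32.3 and 17.1 on the untreated wild-type arrays, 73.3, 56.9 and 43.5 on the 2 h wild-type arrays, and 603.3 and 794.7 in fks1. All fks1 readings exceeded all wild-type readings (log2 4.22, SE 0.32, 18.7-fold, limma adjusted p = 0.000384), on a probe set whose suffix marks that it may match more than 1 transcript. BAG7, a GTPase-activating protein for Rho1, stayed under the control percentile on all 6 wild-type arrays, at 1.7 to 2.8, and read 85.9 and 87.1 in fks1. It was therefore at least 3.40-fold higher (log2 3.49 with the floor, adjusted p = 0.000153). All 6 wild-type readings of BAG7 lay under the floor and were raised to it, so they had no spread in the test. Its p-value therefore does not measure variation between wild-type arrays. SRL3 read 68.7, 67.0 and 61.3 in untreated wild type, 294.9, 168.1 and 188.8 after 2 h, and 866.9 and 1007.9 in fks1 (log2 2.99, SE 0.33, 7.95-fold, adjusted p = 0.00269). PRM5, a membrane protein gene used as a reporter of the pathway, read 160.4 to 180.6 in untreated wild type, 257.8 to 401.0 after 2 h, and 1532.6 and 1594.7 in fks1. On the log2 scale, the 2 fks1 readings of PRM5 differed by less than the wild-type readings of either treatment did. Its log2 strain difference was 2.74 (SE 0.23, adjusted p = 0.000675).

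Several wall-building members of the same list rose. KTR2, a mannosyltransferase, read 103.3 to 142.5 in wild type and 710.1 and 692.3 in fks1 (log2 2.47, adjusted p = 0.000322). NCW2, a wall protein, read 716.6 to 831.6 in untreated wild type, 943.7 to 1398.7 after 2 h, and 4526.7 and 4887.8 in fks1 (log2 2.34, adjusted p = 0.000322). PIR3, a covalently bound wall protein, varied within wild type from 82.8 to 279.8, against 1103.3 and 949.4 in fks1 (log2 2.71, SE 0.52, adjusted p = 0.0279). Its paralogs PIR1, CIS3 and HSP150 had log2 differences of −0.16, −0.07 and −0.03, none past the threshold. PST1, a secreted wall protein, rose to 3823.5 and 4450.4 from 1220.8 to 2510.2 (log2 1.31, SE 0.19, adjusted p = 0.00952). The yapsin protease genes YPS3 (log2 2.33) and YPS6 (1.73) rose too. CRH1, a chitin to glucan crosslinking enzyme, rose by a log2 of 0.83 (adjusted p = 0.0249), which did not pass with the replicate number as a block (0.0636).

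Among the 15 kinases, phosphatases and transcription factors of the Slt2 route, 4 rose and none fell. These calls were 26.7% of the list, against 4.29% of all genes, and the list median log2 was 0.39. SLT2, the MAP kinase gene, read 285.9, 293.7 and 274.9 in untreated wild type, 585.4, 514.8 and 328.6 after 2 h, and 2032.3 and 1800.5 in fks1. Its fks1 readings lay above every wild-type reading (log2 2.40, SE 0.25, 5.27-fold, limma adjusted p = 0.00213). KDX1, a pseudokinase paralog of SLT2, read 26.1, 31.2 and 33.3 in untreated wild type, 133.6, 91.3 and 61.2 after 2 h, and 496.5 and 493.8 in fks1 (log2 3.25, SE 0.40, adjusted p = 0.0045). The other called genes were PTP2, a phosphatase of Slt2 (log2 1.38, adjusted p = 0.0086), and RLM1, the transcription factor (1.14, adjusted p = 0.0419, 0.0605 with median scaling). RLM1 also failed to pass with no filter, with quantile normalization, without a variance trend and with all 11 arrays. Nor did it pass when any wild-type array other than 2 h array 2 was left out. All 4 genes are on both lists. The upstream kinases PKC1, BCK1, MKK1 and MKK2 had log2 differences of 0.35, −0.02, 0.01 and 0.22, none past the threshold. Without the untreated fks1 array none of the 15 was called, and without the treated one 3 were: SLT2 had adjusted p values of 0.104 and 0.0323 in those fits, and KDX1 of 0.127 and 0.0323.

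Of 14 sensors and Rho1 regulators, BAG7 rose and WSC4 fell, and the median log2 difference was 0.27. These calls were 14.3% of the list, against 4.29% of all genes. BAG7 exceeded the floor only on the fks1 arrays, so it entered the test through them alone. Its call does not measure wild-type spread, and the share of this list rests in part on it. WSC4, a member of the Wsc sensor family, read 582.8, 639.2 and 481.1 in untreated wild type, 908.9, 463.4 and 450.2 after 2 h, and 171.9 and 299.7 in fks1. Its fks1 readings lay below all wild-type readings (log2 −1.33, SE 0.30, limma adjusted p = 0.0485). WSC4 did not pass without the untreated or the treated fks1 array, nor when any wild-type array other than 2 h array 3 was left out. SLG1 (also called WSC1), WSC2 and MID2, the sensors best known for wall stress, had log2 differences of 0.20, 0.24 and 0.68, none past the threshold (for MID2 adjusted p = 0.082).

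Of 17 calcineurin regulators and targets tested, genes of the calcium-activated phosphatase route that also controls GSC2, 3 rose and none fell. These calls were 17.6% of the list, against 4.29% of all genes, and the list median log2 was 0.35. PHO89, a sodium and phosphate cotransporter, read 431.0, 374.2 and 283.5 in untreated wild type, 227.7, 299.4 and 220.7 after 2 h, and 2666.6 and 1525.5 in fks1. The treated fks1 reading was lower than the untreated one, as in wild type, and both exceeded all wild-type readings (log2 2.76, SE 0.20, 6.79-fold, adjusted p = 0.000315). RCN2, a calcineurin regulator, rose by a log2 of 0.95 (adjusted p = 0.023), and GSC2 was the third. Without the untreated fks1 array 1 of the 3 passed, and without the treated one 2. RCN1 (0.88, adjusted p = 0.0712), GYP7 (1.09, 0.0639) and YPS1 (0.82, 0.0745) did not pass, and GYP7 and YPS1 passed with the replicate block (0.0301 and 0.0364). PHO89 also belongs to the phosphate regulon, of which it was the only called gene among 16 tested (6.25%), with a list median of −0.02.

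**Figure D3:**
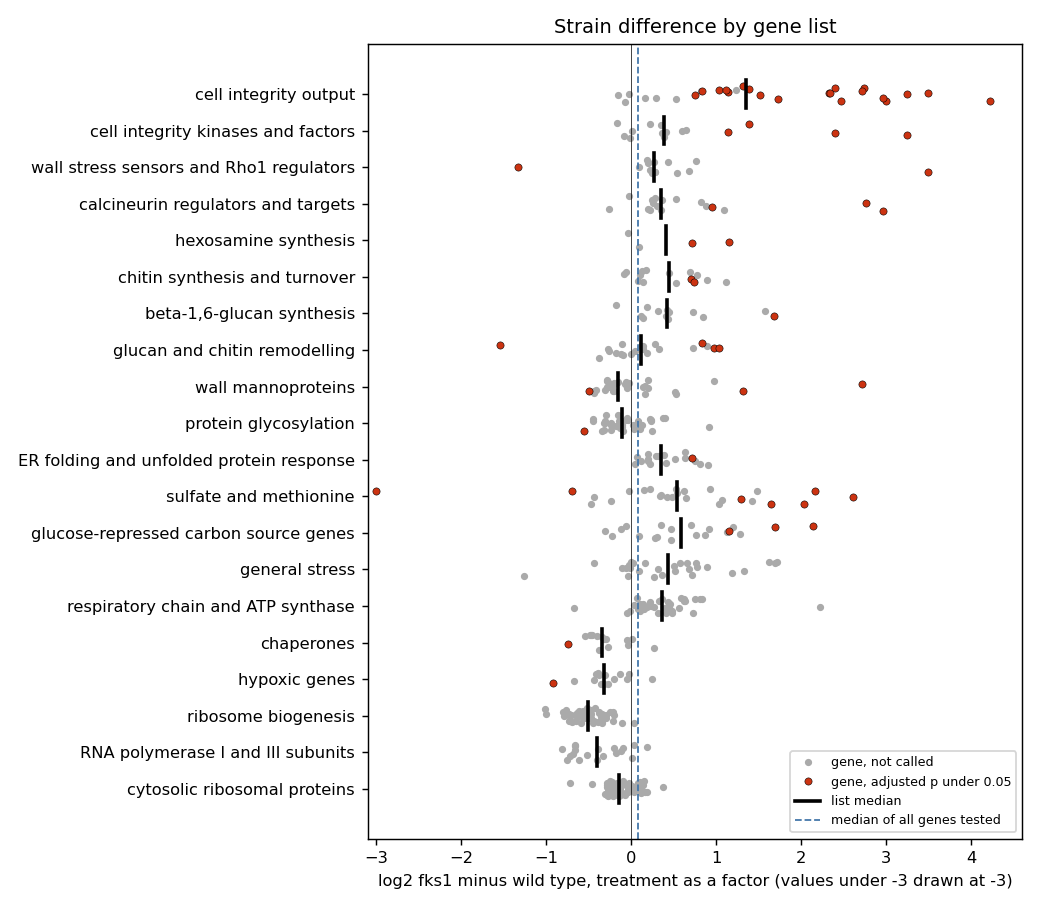
Log2 strain difference of each gene (points, red where the adjusted p is under 0.05) in 20 gene lists, with the list median as a black bar and the median of all 5588 genes as a dashed line. The cell integrity output list reaches farthest to the right with 20 of 28 genes called, while the ribosome biogenesis list lies to the left of 0 with no called gene.

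A few chitin and hexosamine genes rose. Of 15 chitin genes, CHS7 and CHS3 rose and none fell (13.3% called against 4.29% of all genes, median log2 0.44). CHS3, the catalytic subunit that makes most wall chitin, read 1364.1 to 1480.3 in untreated wild type, 1298.8 to 1731.4 after 2 h, and 2395.5 and 2310.4 in fks1 (log2 0.70, SE 0.13, 1.63-fold, limma adjusted p = 0.0249). CHS7, which exports Chs3 from the endoplasmic reticulum, read 758.9 to 928.7 in wild type and 1345.2 and 1429.2 in fks1 (log2 0.74, SE 0.12, adjusted p = 0.0147). CHS1 (log2 1.11, adjusted p = 0.0686) did not pass. The CHS3 call was lost with median scaling (adjusted p = 0.0694) and with the replicate block (0.0598), and neither gene was called when one or the other fks1 array was left out.

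GFA1, the amidotransferase that makes glucosamine-6-phosphate, read 1036.7, 1062.5 and 1037.0 in untreated wild type, 1463.5, 1324.5 and 1139.7 after 2 h, and 2621.7 and 2538.4 in fks1. Both fks1 readings lay above all wild-type readings (log2 1.14, SE 0.14, 2.21-fold, limma adjusted p = 0.00394). PCM1, the mutase of the same route, rose from 1251.2 to 1891.0 in wild type to 2399.0 and 2609.2 (log2 0.72, adjusted p = 0.0203, 0.0561 with median scaling). The acetyltransferase GNA1 and the pyrophosphorylase QRI1 had log2 differences of −0.04 and 0.10, neither past the threshold, and the sign of QRI1 turned with median scaling and with quantile normalization. Without the untreated fks1 array neither GFA1 nor PCM1 was called, and without the treated one only 1 of them.

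Wall remodelling enzymes held calls in both directions. Of 21, EXG2, CRH1 and DFG5 rose and GAS2 fell, with a median log2 of 0.11 that turned to −0.05 with median scaling. EXG2, an exoglucanase, read 232.3 to 275.5 in wild type and 481.8 and 537.2 in fks1 (log2 0.98, adjusted p = 0.0086). DFG5, a wall mannosidase homolog, rose by a log2 of 1.03 (adjusted p = 0.0286, 0.0558 with median scaling). GAS2, a glucanosyltransferase of sporulation, read 89.4 to 205.1 in wild type and 40.9 and 45.9 in fks1 (log2 −1.54, SE 0.32, adjusted p = 0.0397). Of 13 genes of beta-1,6-glucan synthesis only TRS65 rose, from 151.3 to 242.5 in wild type to 592.8 and 509.7 (log2 1.67, SE 0.21, adjusted p = 0.00534). Positive values in both treatments were seen for 12 of the 13, against 2434 of all 5588 genes. KNH1 (log2 1.57, adjusted p = 0.111) passed with the replicate block (0.0238). Of 29 wall mannoproteins tested, PST1 and PIR3 rose, TIP1 fell by a log2 of 0.50 (adjusted p = 0.0418, 0.103 with the replicate block) and the median was −0.16. Among 36 glycosylation genes OST3, an oligosaccharyltransferase subunit, fell by a log2 of 0.55 (adjusted p = 0.049, 0.118 with the replicate block), and no gene rose. Called shares were 19.0% of the remodelling, 7.69% of the beta-1,6-glucan, 10.3% of the mannoprotein and 2.78% of the glycosylation list. The share over all genes was 4.29%, above that of the glycosylation list.

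All 18 endoplasmic reticulum folding and unfolded protein response genes had positive log2 strain differences, from 0.04 for PDI1 to 0.90 for IRE1, with a median of 0.35, against 3291 positive of all 5588 genes. With median scaling 15 of the 18 were positive (median 0.19), and with the replicate block 16. Only SIL1, a nucleotide exchange factor for Kar2, was called (log2 0.71, SE 0.13, limma adjusted p = 0.0249, 0.0627 with the replicate block and 0.0693 with median scaling). That was 5.56% of the list, against 4.29% of all genes. KAR2, the main chaperone of the compartment, read 4927.1 to 8197.4 in wild type and 6783.3 and 7762.7 in fks1, inside the wild-type range, and its log2 difference was 0.07.

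MET17, the O-acetylhomoserine sulfhydrylase of methionine synthesis, had the largest fall after FKS1. It read 1204.3, 684.1 and 1248.1 in untreated wild type, 985.3, 265.3 and 684.2 after 2 h, and 7.6 and 7.7 in fks1. Both fks1 readings lay under the control percentile and all wild-type readings far above it, so MET17 was at least 29.6-fold lower (log2 −6.61 with the floor, SE 0.47, limma adjusted p = 0.000315). The published genotype of BY4741 carries a MET17 deletion, and here the arrays labelled BY4741 carried the MET17 signal while the fks1 arrays did not. A MET17 difference between the strains therefore accompanies every comparison in this section, and the effect of fks1 cannot be told apart from it.

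Of the 26 genes of sulfate assimilation and methionine synthesis, 5 rose and 2 fell, MET17 included, with a median log2 of 0.53. These calls were 26.9% of the list, against 4.29% of all genes. MET3, the ATP sulfurylase that starts the route, read 116.6 to 172.6 in wild type and 894.4 and 851.3 in fks1 (log2 2.61, SE 0.19, 6.11-fold, limma adjusted p = 0.000322). MET14, the next kinase, read 211.3 to 241.7 in untreated wild type, 126.7 to 180.8 after 2 h, and 916.0 and 746.4 in fks1 (log2 2.16, adjusted p = 0.00058). The other genes that rose were STR3, a cystathionine beta-lyase (log2 2.03), SUL2, a sulfate permease (1.64), and MET10, a sulfite reductase subunit (1.29). SAM1, an S-adenosylmethionine synthetase, fell by a log2 of 0.70 (adjusted p = 0.0322). Genes of the cysteine branch, CYS3 and CYS4, had values of −0.47 and −0.24 and did not pass. Without either fks1 array in turn, 2 genes were called higher and MET17 lower. For 16 of the 26 genes both fks1 arrays exceeded all wild-type arrays, against 19.6% of all genes.

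**Figure D4:**
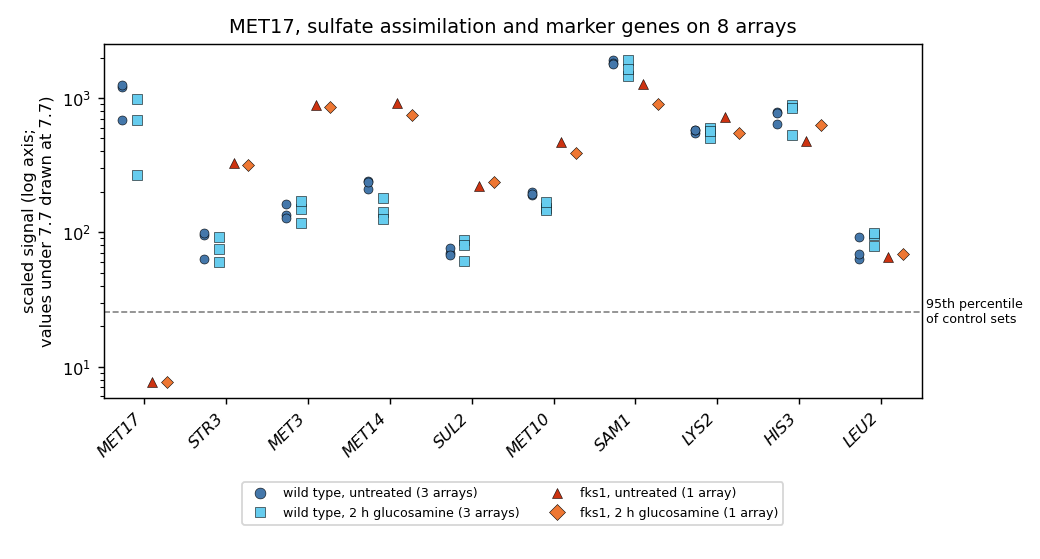
Scaled signal (log axis) of MET17, 6 further genes of sulfate and methionine metabolism and 3 marker genes on each of the 8 arrays, with values under 7.7 drawn at 7.7 and the control percentile of 25.46 as a dashed line. MET17 reads at the bottom of the scale on both fks1 arrays, STR3, MET3, MET14, SUL2 and MET10 lie above every wild-type array, and the readings of LYS2, HIS3 and LEU2 overlap between the strains.

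No other auxotrophic marker of the BY strains passed the test. LYS2 read 502.7 to 602.8 in wild type and 727.9 and 548.0 in fks1, and HIS3 and LEU2 had log2 differences of −0.41 and −0.29. URA3 was not above the floor on enough arrays to be tested. Of 7 genes expressed in mating type a cells, limma called 0, and 0 had an unadjusted p under 0.05. Their median log2 was −0.21 with 2 of 7 positive, and 0.07 with 5 of 7 positive with the replicate block, where AGA2, an agglutinin subunit, was called (adjusted p = 0.0356, 0.267 without the block). STE2, the receptor of a cells, read 917.4 to 1491.3 in wild type and 841.8 and 945.0 in fks1. Of 4 genes of alpha cells only STE3 was called, at low signal: 33.1 to 43.7 in wild type and 62.6 and 93.8 in fks1 (log2 1.00, adjusted p = 0.0402, 0.0603 with the replicate block).

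Genes next to FKS1 on chromosome XII were looked at for an effect on its neighbourhood, in the gene order of the RefSeq table. Within 3 genes on either side, VRP1 (log2 0.54), RPP0 (−0.29), SPO77 (1.33) and TRR4 (−0.07) did not pass, and YLR342W-A was not tested. GAS2, separated from FKS1 by YLR342W-A, was the only called neighbour, as given above. By chromosome, the median log2 strain difference ran from 0.01 on XIII to 0.15 on IX, with 0.03 on XII.

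The 12 largest rises, taken without probe sets that may match several transcripts (CRG1 was named through its list), included genes outside the wall lists. CPP3, a small membrane-associated protein gene, read 147.2, 257.5 and 222.0 in untreated wild type, 219.6, 258.2 and 142.7 after 2 h, and 2124.1 and 2596.3 in fks1. Its log2 difference was 3.54 (SE 0.27, 11.6-fold, limma adjusted p = 0.000384). Having both fks1 arrays outside the wild-type range was a condition for naming these rises. The others were YPL088W (log2 3.04, 8.21-fold), a predicted aldo-keto reductase, MNC1 (2.82), NQM1 (2.71), a transaldolase paralog, and SHH3 (2.66), which stayed near or under the control percentile in wild type. Each of these 5 genes passed with an adjusted p of 0.0249 or less.

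As deposited, fewer probe sets were called lower (74) than higher (257), but with median scaling more were (200 against 170). The median log2 difference of the called probe sets, as deposited, was −0.86 for falls and 1.22 for rises. FKS1 (log2 −9.15) and MET17 (−6.61), given above, fell by more than any gene rose (4.22 at most). MAE1, mitochondrial malic enzyme, read 1132.0, 2305.7 and 1748.3 in untreated wild type, 1128.0, 2118.4 and 2171.6 after 2 h, and 411.3 and 491.4 in fks1 (log2 −1.91, SE 0.31, limma adjusted p = 0.0147). APE1, the vacuolar aminopeptidase, fell by a log2 of 1.45 (adjusted p = 0.0172). MIG2, a glucose repressor, fell by 1.03 on the log2 scale, TIM23, a mitochondrial import channel, by 1.01, THR1, homoserine kinase, by 0.99, GCV2, a glycine decarboxylase subunit, by 0.99 and FAA4, an acyl-CoA synthetase, by 0.98. For these genes both fks1 arrays lay below all 6 wild-type arrays, which was a condition for naming them and not a result. MLP1, a nuclear pore basket protein, read 222.3 to 400.0 in wild type and 167.9 and 98.9 in fks1 (log2 −1.27, adjusted p = 0.0416, 0.084 with the replicate block), and none of its 7 other probe sets passed.

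Glucose-repressed genes rose in part: of 20 tested, 3 rose and none fell, with a median log2 of 0.59. These calls were 15% of the list, against 4.29% of all genes. FBP1, fructose-1,6-bisphosphatase, read 25.1 to 71.0 in wild type and 186.5 and 206.9 in fks1 (log2 2.14, SE 0.39, 4.40-fold, limma adjusted p = 0.024). IDP2, cytosolic isocitrate dehydrogenase, rose by a log2 of 1.69 (adjusted p = 0.0149), and PCK1, the other gluconeogenic enzyme, by 1.15 (adjusted p = 0.0268). HXT5, a hexose transporter of slow-growing cells, rose from 44.2 to 66.3 in wild type to 181.5 and 156.4 (log2 1.61, adjusted p = 0.00705), while HXT1, the low-affinity transporter, had a log2 difference of −0.74 that did not pass (adjusted p = 0.152). Limma called 0 of 18 glycolytic genes, 3 of which had an unadjusted p under 0.05, against 1282 of all 5588 genes.

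Nutrient uptake lists moved in both directions. Among 21 iron genes, FET3 fell from 4821.8 to 5504.3 in wild type to 3025.5 and 3026.0 (log2 −0.76, SE 0.10, limma adjusted p = 0.00569) and FIT3, a wall protein of iron retention, fell by a log2 of 0.87 (adjusted p = 0.0173). HMX1, heme oxygenase, rose by 1.16 (adjusted p = 0.0169) and TIS11, which degrades iron-using transcripts, by 1.45 (adjusted p = 0.0433, 0.0798 with the replicate block). ZRT2, the low-affinity zinc transporter, fell by a log2 of 0.89 (adjusted p = 0.0193), the only call among 9 zinc genes. Of 24 nitrogen source genes DAL4, PUT1 and GDH2 rose by log2 values of 1.63, 1.67 and 0.96, and DUR3, a urea permease (1.03, adjusted p = 0.0745), passed only with the replicate block (0.0152). Of 34 amino acid synthesis genes controlled by Gcn4, ILV3 and ILV2 fell by 0.50 and 0.60, and ILV2 did not pass with the replicate block (adjusted p = 0.0817). Called shares were 19.0% of the iron, 11.1% of the zinc, 12.5% of the nitrogen and 5.88% of the Gcn4 list. The share over all genes was 4.29%, so the Gcn4 list lay near it.

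Among stress and growth lists many genes shared a sign while few or none passed. Ribosome biogenesis genes had negative log2 values for 49 of 50 members (median −0.51), against 2297 of all 5588 genes, and 0 were called by limma. That median was −0.22 with the replicate block, −0.32 without the treated fks1 array and −0.67 with median scaling, where 5 were called. General stress genes had a median of 0.43 with 0 of 28 called, and respiratory chain and ATP synthase genes a median of 0.36 with 0 of 37 called. Without the treated fks1 array these medians were 0.12 and 0.14, and without the untreated one 0.82 and 0.50. With the replicate block the respiratory median was 0.034, with 20 of 37 positive. At an unadjusted p under 0.05, the ribosome biogenesis, general stress and respiratory lists held 23 of 50, 9 of 28 and 2 of 37 genes, against 1282 of all 5588.

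The wild-type arrays themselves spread widely on these lists. The mean of the general stress list, relative to wild type of the same treatment, was 0.09 in untreated and 0.83 in treated fks1, against −0.51 to 0.52 on the wild-type arrays. For respiratory genes the values were 0.19 and 0.57 against −0.55 to 0.46, and for ribosome biogenesis −0.32 and −0.70 against −0.44 to 0.26. In each list the untreated fks1 array lay inside the wild-type range and the treated one outside it. Of 15 chaperone genes STI1, an Hsp90 cochaperone, was the only one called and fell by a log2 of 0.75 (adjusted p = 0.0322), with a list median of −0.34. Of 15 hypoxic genes ANB1 fell by 0.92 (adjusted p = 0.0497, 0.138 with the replicate block), and 14 of the 15 had negative values, against 2297 of all 5588 genes. Called shares were 6.67% of the chaperone and of the hypoxic list, against 4.29% of all genes.

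**Figure D5:**
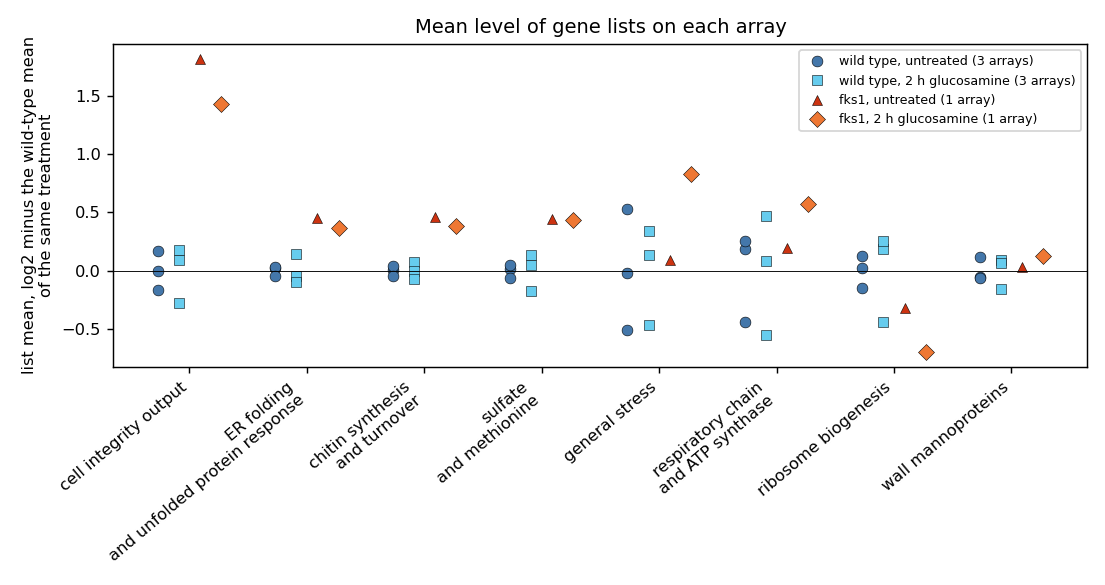
Mean log2 level of 8 gene lists on each array, as the difference from the wild-type mean of the same treatment. Both fks1 arrays lie far above the wild-type spread for the cell integrity output (1.82 and 1.43), while for general stress, respiratory chain and ribosome biogenesis the untreated fks1 array lies within the wild-type spread and the treated one outside it.

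Of 20 actin and polarity genes 2 were called (10%), and of 23 pheromone response genes 1 (4.35%). The drug resistance and lipid transport list held 1 of 14 (7.14%) and ergosterol synthesis 1 of 26 (3.85%). The share over all genes was 4.29%, so the pheromone and ergosterol lists lay near it. GIC2 and MSB2, genes of Cdc42 signalling, rose by log2 values of 0.94 and 0.63 (limma adjusted p = 0.0108 and 0.029, the latter 0.0767 with the replicate block). PRM4, a pheromone-regulated membrane protein, read 164.8 to 229.5 in wild type and 515.3 and 532.0 in fks1 (log2 1.47, SE 0.17, adjusted p = 0.00379). RTA1, a lipid-translocating exporter family member, read 11.3 to 27.9 in wild type, near the control percentile, and 145.9 and 112.9 in fks1 (log2 2.62, adjusted p = 0.00696). ERG27, the 3-keto sterol reductase, was the only called gene of 26 in ergosterol synthesis (log2 0.72, adjusted p = 0.0396, 0.101 with the replicate block).

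Whether glucosamine changed fks1 cells as it changed wild type was tested as the strain by treatment difference. Limma called 0 of 8778 probe sets (0.0%), and 244 had an unadjusted p under 0.05. With 1 fks1 array in each treatment, the spread in this test comes from the wild-type arrays alone. FKS1 had the smallest p, with both fks1 readings under the control percentile, and YMR084W, DOG1 and YSF3, also among the first 6, were near or under that level in most arrays. YPR063C, a protein of the endoplasmic reticulum, read 3470.9 to 3702.8 in wild type, 1893.1 in untreated fks1 and 3226.9 in treated fks1. SCW10, a wall glucanase homolog, read 5596.9 in untreated and 2489.3 in treated fks1 against 3617.1 to 4690.9 in wild type. Its second probe set gave 640.8 and 494.7 against 170.0 to 393.7 and was called higher across treatments (adjusted p = 0.0332), so the probe sets of SCW10 disagree.

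For the cell integrity output the 2 h response, treated minus untreated on the log2 scale, had a median of 0.35 in wild type with 26 of 28 genes positive, and of 0.04 in fks1 with 17 of 28 positive (−0.06 and −0.05 over all genes). KDX1 responded by 1.59 in wild type and −0.01 in fks1, SRL3 by 1.68 and 0.22, and PRM5 by 0.96 and 0.06. None of these differences in response passed (for KDX1 the limma adjusted p was 0.999). Over 5588 genes the single-pair response of fks1 correlated at 0.238 with that of wild-type arrays numbered 1, at −0.091 with those numbered 2 and at −0.036 with those numbered 3. The 3 wild-type pairs, matched by the number in their titles, correlated with each other at 0.154 to 0.248. These values describe genes on shared hybridizations, and the response of fks1 rests on 1 array in each treatment.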

How the data were processed

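Yeast total RNA was measured on 11 Affymetrix YG-S98 arrays, of which 8 were used here. The authors analysed and normalized the arrays with GeneChip Analysis Suite, per the labels, and deposited 1 signal per probe set. Its version and options were not found in the labels. From the values, each deposited signal column is on a linear scale with the same trimmed mean. No batch is labelled, and the number of arrays limits the precision.

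From these signals, values under 7.7 (the 10th percentile of all values) were raised to that floor and log2 transformed. Control probe sets of the array were left out, and of 9275 probe sets the 8778 that exceeded this floor on 2 or more of the 8 arrays were tested. A log2 difference therefore understates the change of a gene at the floor. limma 3.58.1 in R 4.3.3 (lmFit, eBayes with trend) gave the strain difference with treatment as a factor and, from 4 group means, the strain by treatment difference. P-values are two-sided, Benjamini-Hochberg adjusted over all 8778, with a threshold of 0.05. The script recovered known changes in simulated data. Where a group lay under the control percentile on every array, the bound of its fold came from that percentile.

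GEO's platform annotation paired 6504 probe sets with 1 gene, 328 with several and 2443 with none, and all 6504 matched RefSeq genes. A gene was taken by its probe set with the highest mean signal, 5588 genes in all. Signals of different probe sets were not set against each other.

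The arrays compared, the 40 gene lists and the rule for named genes were chosen with earlier results of these data known, so lists are described by counts and medians without a set test. Named were FKS1, GSC2 and FKS3, the genes next to FKS1, and the 12 largest rises and 12 largest falls past the threshold. Up to 4 called and 2 uncalled members of each list and the 6 smallest p of the strain by treatment difference were named too. The 12 rises and 12 falls left out probe sets that may match several transcripts. They also required both fks1 arrays outside the range of the wild-type arrays, and a mean above the control percentile in the higher strain.

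Replicate numbers paired the wild-type arrays: deviations from the group means of same-numbered untreated and 2 h arrays correlated at 0.352, 0.568 and 0.514, and those of different numbers at −0.481 to 0.005. Both fks1 arrays are numbered 1, and whether that number means the same for them is not given. The fit with the number as a block is printed beside the genes described whose call it changes. Other alternatives were another floor, filter, scaling or variance model, all 11 arrays, probe sets that may match several transcripts left out, each treatment alone, and each array left out. Figures were drawn with matplotlib 3.10.9.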

Additional observations from a re-analysis of the deposited data

How the results depend on the processing

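The count of probe sets in the strain difference (331, 257 higher and 74 lower) stayed within 1.5 times under another floor (421 at the control percentile, 373 with 16 added), no filter (321), a filter on the mean (331), quantile normalization (268), no variance trend (297), robust variance (339), the replicate block (342, of which 233 were among the 331) and without family probe sets (325). Median scaling gave 370, with 170 higher and 200 lower, and quantile normalization 176 higher and 92 lower. Without a variance trend 43 were lower, and with all 11 arrays 129 of 483. Averaging 4 group means gave 189 (156 higher, 33 lower). Untreated arrays only gave 2 calls (0 higher, 2 lower) and 2 h arrays only 3 (0 higher, 3 lower), with 1106 and 770 at an unadjusted p under 0.05. Leaving out 1 array gave 24 to 310 calls, 17 to 231 higher and 7 to 79 lower, and the fits without a fks1 array assume that the lone array varies like wild type. The strain by treatment difference (0 calls) gave 76 calls with no filter and 1 with all 11 arrays, 0 under the other alternatives that could be fitted, and cannot be estimated without either fks1 array. The cause of these moves was not tested.

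For the 161 genes named by rule, 3523 gene values under alternatives were compared: 2953 kept their direction and side of the threshold, 468 lost the threshold, 75 gained it and 27 changed sign. Only FKS1 of the 72 called genes was called under every alternative. All changes of sign were in genes that were not called, and the cause was not tested. Median scaling gave −0.071 and quantile normalization −0.0029 for QRI1. The replicate block gave 0.058 for GNA1, 0.21 for MFA1 and 0.055 for TRR4. The control floor gave 0.024 for GIT1. Untreated arrays only gave −0.090 for NCA3, 0.13 for GIT1, 0.060 for MF(ALPHA)1, 0.39 for SCW10 and 0.24 for TRR4, which equal the values without the treated fks1 array. The 2 h arrays only gave 0.11 for RPL7B, −0.68 for YMR084W, −0.11 for DOG1 and −0.012 for YSF3, which equal the values without the untreated fks1 array. Leaving out 1 array at a time gave ranges of −0.091 to 0.0092 for GNA1, −0.090 to 1.55 for NCA3, −1.70 to 0.13 for GIT1, −0.59 to 0.060 for MF(ALPHA)1, −1.55 to 0.11 for RPL7B, −0.68 to 1.35 for YMR084W, −0.75 to 0.39 for SCW10, −0.11 to 1.87 for DOG1, −0.012 to 1.36 for YSF3 and −0.39 to 0.24 for TRR4. The replicate block ended the call of 14 of the 72 genes, median scaling of 13 and quantile normalization of 9. Readings under the control percentile of 25.46 give only bounds.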

Other observations

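Of the 240 called genes, 173 were in no list, and the single genes given here were chosen from them after their values were seen. AMS1, the vacuolar alpha-mannosidase, read 67.6 to 95.8 in wild type and 339.4 and 390.6 in fks1 (log2 2.12, SE 0.20, limma adjusted p = 0.0012). ATG8, the ubiquitin-like protein of autophagosome membranes, read 244.5 to 698.7 in wild type and 1117.0 and 1360.7 in fks1 (log2 1.42, adjusted p = 0.037). The autophagy genes ATG22, ATG5 and ATG45 rose by log2 values of 1.33, 0.75 and 1.00 (limma adjusted p = 0.0424, 0.0485 and 0.0366). The polyubiquitin gene UBI4 rose by 1.60. No list of autophagy genes was counted, and the vacuolar aminopeptidase gene APE1, given above, fell. PLN1, a lipid droplet protein, read 246.3 to 366.8 in wild type and 1372.4 and 1664.9 in fks1 (log2 2.34, adjusted p = 0.000399).

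Others of these genes fell. The IMP dehydrogenase genes IMD2, IMD3 and IMD4 fell by log2 values of 0.95, 0.45 and 0.55, and the suffix of the IMD2 and IMD3 probe sets marks that they may match more than 1 transcript. URA2, the first enzyme of pyrimidine synthesis, read 3925.4 to 6128.0 in wild type and 2910.2 and 2840.3 in fks1 and fell by a log2 of 0.81 (limma adjusted p = 0.0173). FUR1, of pyrimidine salvage, fell by 0.83 and ADE6, of purine synthesis, by 0.82. KCH1, a potassium channel linked to calcium influx, rose by 1.35, and the flavin carrier homologs FLC1 and FLC2 rose by 1.21 and 1.33. AXL2, a bud site landmark, read 163.1 to 252.1 in wild type and 504.4 and 567.3 in fks1 (log2 1.32, adjusted p = 0.00484).

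One probe set with no gene in the annotation had the largest positive log2 difference of all probe sets. It read 136.1, 2.7 and 18.8 in untreated wild type, 144.4, 1.4 and 26.2 after 2 h, and 6698.1 and 8253.3 in fks1 (log2 8.01, SE 1.19, limma adjusted p = 0.0103). The wild-type arrays numbered 1 read above the control percentile in both treatments, those numbered 2 below it, and 3 of the 6 wild-type readings lay under it. What it measures is not given here, and it was singled out after its value was seen.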
